A study of Mus musculus with 12 samples.

Results

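The 9 genes described here encode inflammatory cytokines (Il1a, Il1b, Il6, Il10, Il18 and Tnf) and components of the inflammasome (Nlrp3, Casp1 and Pycard). They were chosen by name, as cytokines of classical activation together with the inflammasome, from the 55487 genes in the count table. Transcripts were counted in microglia, the resident macrophages of the brain, sorted from YARG mice at P13. In these mice a YFP reporter marks cells that express ARG1. Tissue came from the basal forebrain and striatum, and the cells were sorted as CX3CR1+ CD206-, so that CD206+ macrophages were gated out, and then split by YFP into ARG1+ and ARG1- microglia. There were 12 libraries, 3 for each of ARG1- females, ARG1- males, ARG1+ females and ARG1+ males, all of the same strain and with no treatment given in the labels. According to the study's methods each library pooled tissue of several mice and the replicates of a sex came from separate litters, and the labels do not say which ARG1+ library shared tissue with which ARG1- library.

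An inflammasome is a protein platform that assembles in myeloid cells when a sensor such as NLRP3 detects damage or infection. The sensor recruits the adaptor ASC, the product of Pycard, which in turn recruits caspase-1, and caspase-1 cuts the inactive precursors of IL-1β and IL-18 into secreted cytokines. IL-1α, the product of Il1a, does not need caspase-1 to bind the IL-1 receptor. Transcription of Il1b, Il6, Tnf and Nlrp3 is known to rise when NF-kB is activated, which is why these genes serve as markers of classically activated macrophages and microglia, whereas Il10 encodes a cytokine that restrains them. Transcript counts do not measure the cut or secreted proteins.

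The promoter sequences of 8 of the 9 members were matched in RefSeq (GRCm38.p6); Il10 is named only. The 200 bases before the RefSeq start are printed 5′ to 3′ on the strand of the gene for 5 of them. Il1a and Il1b are shown because they are neighbouring paralogs with very different levels, Il18 and Pycard because they passed the test between populations, and Il6 because it alone held an NF-kB match. Capitals mark matches to the letters TATAAA, the TATA box that positions the start of transcription; to the letters GAGGAA, the core of the site of PU.1, a factor that specifies macrophages and microglia; to the AP-1 site, written as the letters TGANTCA; and to the NF-kB site (GGG and TTTCC with any 2 bases between them). Both strands were searched, so that TTTATA and TTCCTC are matches on the opposite strand, and no match overlapped another.
Il1a: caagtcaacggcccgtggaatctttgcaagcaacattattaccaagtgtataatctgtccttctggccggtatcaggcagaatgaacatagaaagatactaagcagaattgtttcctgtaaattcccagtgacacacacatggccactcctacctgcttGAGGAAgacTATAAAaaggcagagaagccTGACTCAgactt
Il1b: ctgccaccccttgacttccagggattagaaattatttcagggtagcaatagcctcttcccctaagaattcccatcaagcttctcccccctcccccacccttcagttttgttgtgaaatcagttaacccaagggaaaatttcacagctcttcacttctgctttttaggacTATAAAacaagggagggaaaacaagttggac
Il6: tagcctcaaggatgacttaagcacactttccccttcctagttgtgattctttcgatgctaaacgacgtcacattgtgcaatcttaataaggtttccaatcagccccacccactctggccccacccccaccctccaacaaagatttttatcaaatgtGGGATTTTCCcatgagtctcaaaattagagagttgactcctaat
Il18: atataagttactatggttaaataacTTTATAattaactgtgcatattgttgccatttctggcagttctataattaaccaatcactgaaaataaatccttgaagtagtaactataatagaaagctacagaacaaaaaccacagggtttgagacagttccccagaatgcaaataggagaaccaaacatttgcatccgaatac
Pycard: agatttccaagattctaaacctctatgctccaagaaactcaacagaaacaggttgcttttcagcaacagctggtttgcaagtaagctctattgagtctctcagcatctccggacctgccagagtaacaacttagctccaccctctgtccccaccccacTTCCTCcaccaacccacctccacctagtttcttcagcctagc
The Il1a sequence is chr2:129309973-129310172 (minus strand), the Il1b sequence chr2:129371140-129371339 (minus), the Il6 sequence chr5:30012914-30013113 (plus), the Il18 sequence chr9:50554500-50554699 (plus) and the Pycard sequence chr7:127993868-127994067 (minus).

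TATAAA occurred in 4 of the 8 member promoters, against 9.96% of all 32851 promoters in the table over the same length. In Il1a it ended 27 bases before the start, in Il1b 26 bases and in Tnf 24 bases, all on the strand of the gene, whereas in Il18 it lay 175 to 170 bases before the start on the opposite strand. GAGGAA was found in Il1a, Tnf, Casp1 and Pycard and in 19.0% of all promoters. The NF-kB letters were present in Il6 only, 44 to 35 bases before the start (1.18% of all promoters), and the AP-1 letters in Il1a only, 12 to 6 bases before the start (5.48%). Other letters for these sites, and bases farther from the start, were not searched. A member without a match may therefore still have such a site. Nlrp3 held none of the 4 motifs in this window. The RefSeq start of Il18 lay 127 bases before the start of the gene in GENCODE. These matches describe the letters of the windows, and binding was not measured.

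**Figure D1:**
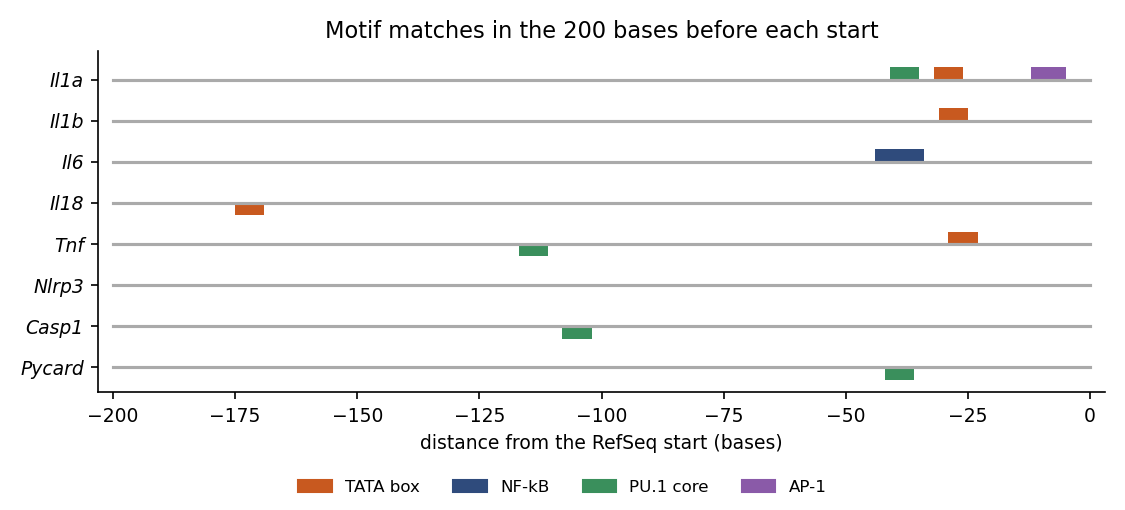
Position of the motif matches in the 200 bases before the RefSeq start of 8 members (x axis: distance from the start in bases; boxes above a line, strand of the gene; boxes below, opposite strand; colours, motifs). The TATAAA matches of Il1a, Il1b and Tnf sit between 32 and 24 bases before the start, and the line of Nlrp3 is empty.

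The libraries held between 28356659 and 60625170 counts. Levels are given as CPM, counts scaled to a common TMM-normalized library size, and 3 counts, taken as the limit below which a gene cannot be told from absent, equalled 0.0511 to 0.102 CPM depending on the library. Microglial markers were abundant in every library (P2ry12, the ADP receptor of microglial processes, 9897 ± 821 CPM in ARG1- and 6763 ± 878 CPM in ARG1+ microglia; SD, n = 6).

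Between ARG1+ and ARG1- microglia, 3 of the 9 members changed, and all 3 were lower in ARG1+ microglia: Pycard, Il1a and Il18. Casp1, Nlrp3, Il6, Tnf and Il1b did not pass the test, and Il10 had no counts. Of the 16908 genes tested by edgeR's quasi-likelihood test with sex as a second term, 15.9% were called at a Benjamini–Hochberg adjusted p under 0.05, 9.42% lower and 6.44% higher in ARG1+ microglia. The filter on low counts was passed by 8 members. Their median log2 fold change was -0.52, against 0.06 over all genes tested. DESeq2's Wald test also called 3 members, all lower, where it called 22.0% of all genes (10.5% lower and 11.5% higher). With bulk RNA, fewer cells expressing a gene and less RNA per cell cannot be told apart.

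Il1a (ENSMUSG00000027399, chr2:129299610-129309972, minus strand, GRCm38), which encodes IL-1α, was the most abundant of the 6 cytokines among the members. In ARG1- microglia its lowest, median and highest levels over the 6 libraries were 197, 256 and 391 CPM, and in ARG1+ microglia they were 126, 146 and 179 CPM. Every ARG1+ library lay below every ARG1- library, which was true of 6.56% of all genes tested and, among the members, of Il1a and Pycard; the reverse held for 3.48% of all genes and for no member. The mean fell from 267 ± 69.8 to 150 ± 19.3 CPM (SD, n = 6), to 56.4% of its level in ARG1- microglia. The log2 fold change of Il1a was -0.83 (SE 0.16, 95% interval -1.18 to -0.47; edgeR adjusted p = 0.00569), and it stayed past the threshold in all 12 fits that left out 1 library. It was not past it with the libraries numbered 1 to 12 only (-0.77, adjusted p = 0.0826), in females alone (-0.50, 0.0965) or in males alone (-1.13, 0.0719).

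Il18 (ENSMUSG00000039217, chr9:50554827-50581840, plus strand), the IL-1 family cytokine that caspase-1 activates and that drives interferon-γ release from lymphocytes, was lower as well. Its lowest, median and highest levels were 29.0, 37.0 and 51.9 CPM in ARG1- microglia and 14.8, 24.4 and 30.2 CPM in ARG1+ microglia. The populations overlapped in a single pair of libraries, ARG1+ male 11 (30.2 CPM) lying above ARG1- female 1 (29.0 CPM), and within each sex they did not overlap, as was true, with lower values in ARG1+ microglia, of 7.77% of all genes tested. The mean fell from 39.9 ± 9.23 to 23.2 ± 5.99 CPM (SD, n = 6), and the log2 fold change was -0.78 (SE 0.21, 95% interval -1.24 to -0.32; edgeR adjusted p = 0.0264). This call did not survive leaving out ARG1- female 2 (-0.68, adjusted p = 0.0703), ARG1+ female 8 (-0.70, 0.0721), ARG1- male 6 (-0.69, 0.0581), ARG1+ male 12 (-0.73, 0.0761) or ARG1+ male 16 (-0.64, 0.0655), and its direction was the same in all 12 such fits. Nor was it past the threshold with the libraries numbered 1 to 12 only (-0.78, 0.108), in females alone (-0.63, 0.217) or in males alone (-0.92, 0.164).

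Pycard (ENSMUSG00000030793, chr7:127989708-127993867, minus strand), which encodes the adaptor ASC, had the smallest standard error of the 8 members tested. Its lowest, median and highest levels were 261, 302 and 324 CPM in ARG1- microglia, against 168, 181 and 217 CPM in ARG1+ microglia. All ARG1+ libraries were below all ARG1- libraries. The mean fell from 295 ± 25.8 to 186 ± 17.0 CPM (SD, n = 6), to 63.1% of the ARG1- level, and the log2 fold change was -0.66 (SE 0.08, 95% interval -0.85 to -0.48; edgeR adjusted p = 6.8e-04). All 12 fits without 1 library kept the call, and in males alone it was lost (-0.69, adjusted p = 0.0719).

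Casp1 (ENSMUSG00000025888, chr9:5298517-5307265, plus strand), which encodes the protease caspase-1, lay between 45.0 and 73.0 CPM (median 57.9) in ARG1- and between 34.9 and 57.7 CPM (median 44.1) in ARG1+ microglia. The ranges overlapped over all libraries and in females, but in males each ARG1+ library (37.1, 34.9 and 44.0 CPM) was below each ARG1- library (53.1, 54.1 and 62.4 CPM), as was true of 14% of all genes tested. The means were 58.2 ± 9.66 and 45.3 ± 8.96 CPM (SD, n = 6). The log2 fold change of -0.38 (SE 0.14, 95% interval -0.69 to -0.07) did not pass the threshold (edgeR adjusted p = 0.0963), except without ARG1- female 1 (-0.47, 0.0246).

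Nlrp3 (ENSMUSG00000032691, chr11:59541568-59566956, plus strand), which encodes the sensor, had higher values in most ARG1+ libraries. In ARG1- microglia the 3 female libraries had 13.8, 10.3 and 12.7 CPM and the 3 male libraries 14.7, 10.1 and 24.8 CPM. In ARG1+ microglia the female libraries had 22.9, 9.05 and 24.7 CPM and the male libraries 24.5, 29.7 and 24.8 CPM. One library of each population stood with the other: ARG1- male 14 (24.8 CPM) was as high as the ARG1+ libraries, and ARG1+ female 8 (9.05 CPM) was the lowest of all 12. The means were 14.4 ± 5.40 and 22.6 ± 7.02 CPM (SD, n = 6), and the log2 fold change of 0.65 (SE 0.27, 95% interval 0.07 to 1.23) did not pass the threshold (edgeR adjusted p = 0.127); without ARG1+ female 8 it was 0.82 (0.0446), and without ARG1- male 14 it was 0.85 (0.0531). Among the inflammasome components, then, the adaptor fell, whereas for the protease and the sensor no change was established with these 12 libraries.

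**Figure D2:**
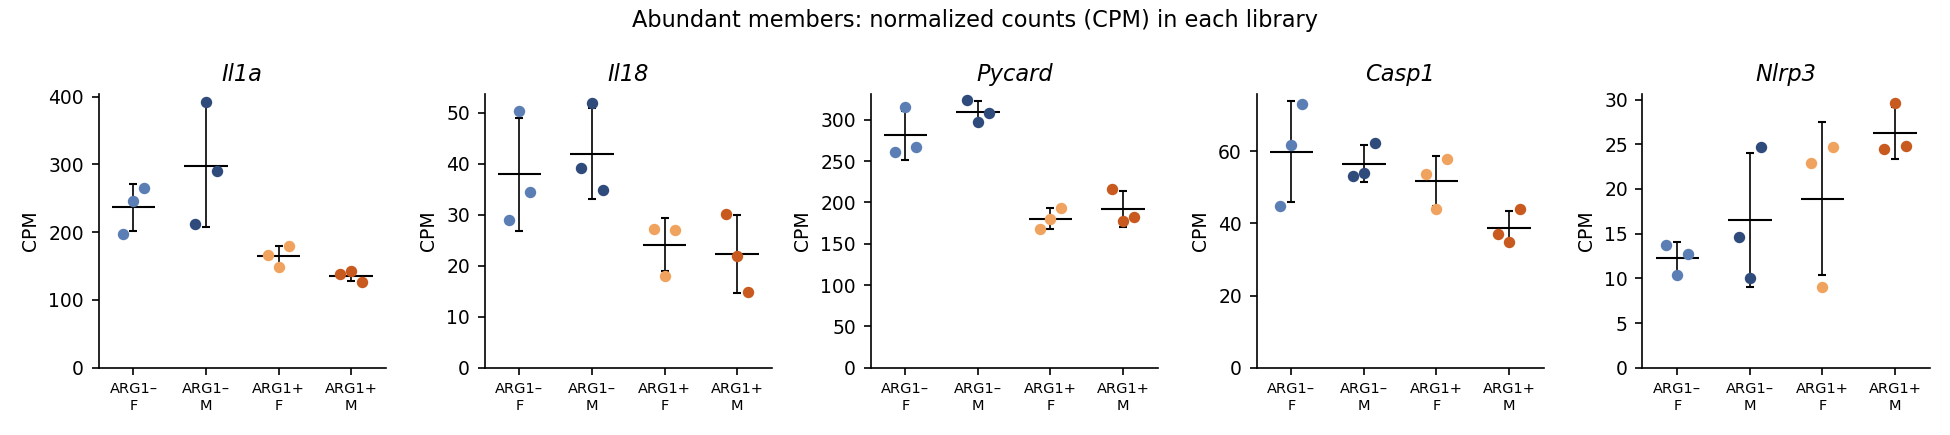
Levels of the 5 abundant members in each library (y axis: CPM, linear from 0; points, libraries; F, female; M, male; line and bars, mean ± SD of 3 libraries). Pycard and Il1a separate ARG1+ from ARG1- libraries completely, whereas 1 ARG1+ female library of Nlrp3 (9.05 CPM) and 1 ARG1- male library (24.8 CPM) lie apart from their groups.

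Il1b, Il6 and Tnf were counted at low levels, and their counts varied widely between replicates. Il1b (ENSMUSG00000027398, chr2:129364570-129371139, minus strand), which encodes IL-1β, had 28, 318 and 149 counts in the ARG1- female libraries and 172, 1 and 0 counts in the ARG1- male libraries. The ARG1+ libraries had 82, 51 and 198 counts in females and 141, 116 and 95 counts in males. The highest and the lowest level were thus both found in ARG1- microglia (7.93 and 0 CPM), while all ARG1+ libraries lay within 1.74 to 5.64 CPM. The 0 counts in ARG1- male 14 allow a level of up to 0.0888 CPM. The means were 2.65 ± 3.12 and 3.07 ± 1.35 CPM (SD, n = 6), and the log2 fold change was 0.35 (SE 1.04, 95% interval -1.91 to 2.6; edgeR adjusted p = 0.864), an interval that holds changes in either direction. The direction was negative in females alone (-0.16), and the value ranged from 0.03 without ARG1- male 6 to 1.79 without ARG1- male 5.

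Il6 (ENSMUSG00000025746, chr5:30013114-30019981, plus strand), which encodes the cytokine IL-6 that signals through gp130, had 34, 243 and 69 counts in ARG1- females and 125, 34 and 101 counts in ARG1- males. In ARG1+ microglia it had 2, 29 and 50 counts in females and 49, 73 and 39 counts in males. ARG1- female 2 was the highest (6.06 CPM), and the 2 counts of ARG1+ female 7 (0.0634 CPM) are below the 3 counts taken as the limit. The means were 2.62 ± 1.97 and 1.05 ± 0.523 CPM (SD, n = 6) and the populations overlapped. The log2 fold change of -1.35 (SE 0.69, 95% interval -2.84 to 0.14) did not pass the threshold (edgeR adjusted p = 0.217), and was -0.72 without ARG1- female 2.

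Tnf (ENSMUSG00000024401, chr17:35199381-35202007, minus strand), which encodes TNF, had 142, 0 and 86 counts in ARG1- females and 95, 106 and 18 counts in ARG1- males. In ARG1+ microglia it had 42, 55 and 59 counts in females and 103, 91 and 25 counts in males. Again both extremes were ARG1- libraries, female 1 (4.26 CPM) and female 2 (0 CPM, which allows up to 0.0749 CPM). The means were 2.05 ± 1.68 and 1.65 ± 0.552 CPM (SD, n = 6), and the log2 fold change was -0.31 (SE 0.88, 95% interval -2.22 to 1.59; edgeR adjusted p = 0.855); it was 0.26 without ARG1- female 1. ARG1- female 2 thus had the highest Il1b and Il6 levels of the 12 libraries and no Tnf counts.

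Il10 (ENSMUSG00000016529, chr1:131019845-131024974, plus strand), which encodes the anti-inflammatory cytokine IL-10, had 0 counts in all 12 libraries. This allows a level of up to 0.0511 to 0.102 CPM, depending on the library, and leaves nothing to compare.

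**Figure D3:**
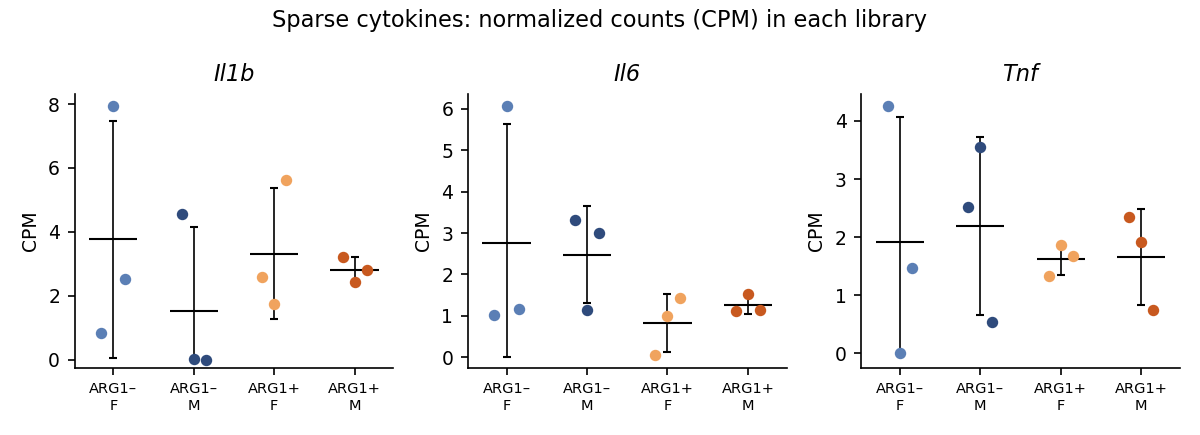
Levels of the sparse cytokines Il1b, Il6 and Tnf in each library (y axis: CPM, linear; points, libraries; F, female; M, male; line and bars, mean ± SD of 3 libraries, lower bars ending at 0). The ARG1- libraries hold both the highest and the lowest values of Il1b (7.93 and 0 CPM) and Tnf (4.26 and 0 CPM).

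The members also differed in level from one another. As CPM per kilobase of exon, the mean levels in ARG1- and ARG1+ microglia were 135 ± 35.3 and 76.2 ± 9.78 for Il1a, 77.7 ± 6.79 and 49.0 ± 4.47 for Pycard, 38.9 ± 6.45 and 30.2 ± 5.99 for Casp1 and 38.7 ± 8.95 and 22.5 ± 5.81 for Il18 (SD, n = 6). Nlrp3 followed with 3.55 ± 1.33 and 5.57 ± 1.73, also per kilobase. Il1b (1.39 and 1.61), Tnf (1.25 and 1.0) and Il6 (1.08 and 0.431) closed the order. In both populations the ranges over libraries overlapped between Casp1 and Il18, between Nlrp3 and Il1b, between Il1b and Tnf and between Tnf and Il6, so that these neighbours did not separate, whereas Il1a, Pycard and Casp1 did, as did Il18 and Nlrp3. For Pycard the exon length of 3800 bases comes from its longest transcript, and the other annotated transcript has 493 bases, so that its place relative to Il1a depends on which length is taken. The interleukin-1 pair was uneven: per kilobase, Il1a was 30.0 to 227 times as high as Il1b in the 10 libraries with more than 3 Il1b counts.

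**Figure D4:**
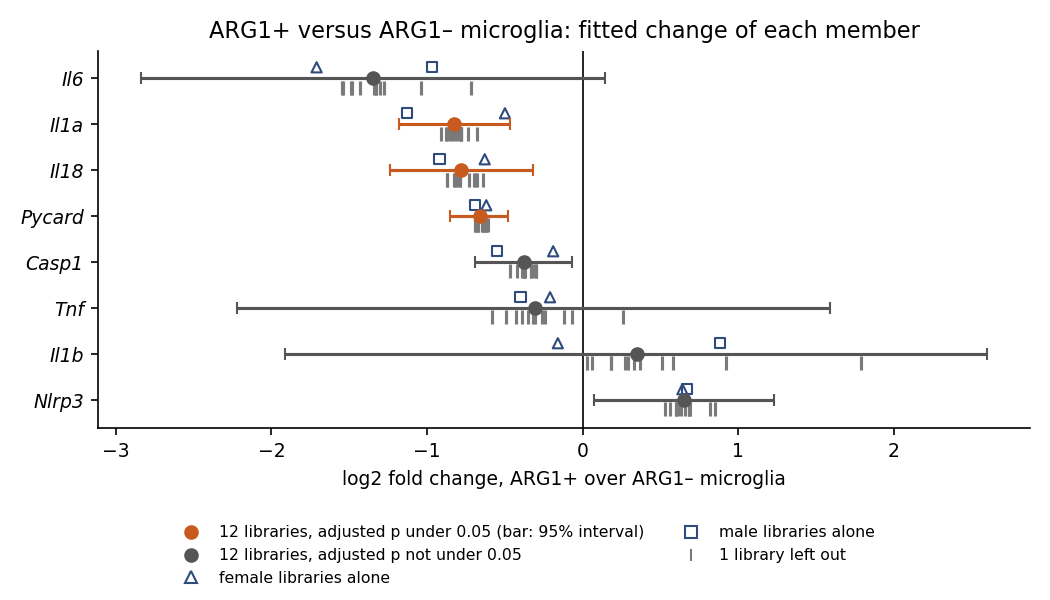
Log2 fold change of the 8 members tested, ARG1+ over ARG1- microglia (x axis; circles with 95% intervals, all 12 libraries; orange, adjusted p under 0.05; triangles, female libraries alone; squares, male libraries alone; ticks, 1 library left out). Il1a, Il18 and Pycard lie left of 0 in every fit drawn, whereas the ticks of Tnf fall on both sides of 0, as do the triangle and the square of Il1b.

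The study asked whether the populations differ between the sexes. No member passed the test between females and males in ARG1- or in ARG1+ microglia, or the test of whether the difference between populations depended on sex. In edgeR's quasi-likelihood test 0 of the 8 members tested were called in each of the 3 contrasts, and 0 had an unadjusted p under 0.05. Of all genes, 0.0946% were called between the sexes in ARG1- microglia, 0.0355% in ARG1+ microglia and 0% for the dependence on sex, and 10%, 3.12% and 9.32% had an unadjusted p under 0.05. DESeq2 also called 0 members in the 3 contrasts, where it called 2.26%, 0.131% and 1.63% of all genes, with 1 member at an unadjusted p under 0.05 among ARG1+ microglia (Casp1, 0.45 higher in females on the log2 scale) and 1 for the dependence on sex (Il1a). Il1a had 237 ± 35.3 CPM in ARG1- and 165 ± 15.4 CPM in ARG1+ females, and 298 ± 90.0 and 136 ± 8.64 CPM in males (SD, n = 3). Its log2 fold change was -0.50 in the female libraries alone and -1.13 in the male libraries alone, and the difference between the sexes in the fit of all 4 groups, 0.61 (female minus male change; SE 0.28, 95% interval -0.01 to 1.22), did not pass the threshold (edgeR adjusted p = 0.540). For Pycard the changes in each sex alone were -0.62 and -0.69, and the difference in the fit of all 4 groups was 0.05. With 6 libraries a sex, only Pycard in females passed the threshold (adjusted p = 0.0364).

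Several members share their locus with another annotated gene, and the library kit does not mark strand, so that reads from the shared bases cannot be assigned by strand. Pycard shares 599 bases with Gm45205 on the opposite strand, a gene model of unproven status that fell from 130 ± 12.5 to 64.7 ± 9.64 CPM (log2 fold change -1.0, SE 0.11, adjusted p = 4.7e-04). Il1a shares 8217 bases with Gm14023 on the opposite strand, which fell from 35.4 ± 6.82 to 23.6 ± 3.82 CPM (-0.58, SE 0.17, adjusted p = 0.0335). Il18 overlaps Bco2, which had 124 ± 25.7 and 101 ± 5.39 CPM (-0.30, adjusted p = 0.143), and Tex12 (1.64 and 2.59 CPM). Il1b overlaps Il1bos, which was at 0 in 5 of the 6 ARG1- libraries. The shared bases are those of the gene spans, introns included, and Il1a has only 1974 exon bases. How many exon bases are shared is not given here, so the uncertainty of these members and their partners is not sized.

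The other genes of these pathways were followed in 7 lists with 108 genes, of which 91 were tested. By edgeR 5 were called higher and 3 lower in ARG1+ microglia, and the median log2 fold change was 0.10. The 5 include Ptgs2, which had 0 counts in all ARG1- libraries and passed the filter only through the ARG1+ libraries. Over all genes tested the shares were 6.44% higher and 9.42% lower, and the 7 lists together held no more calls than genes at large. DESeq2 called 11 of the genes in the lists, where it called 22.0% of all genes. Among the 11 were all genes called by edgeR but Ptgs2. Among 11 further ligands, receptors and inhibitors of the IL-1 family, 0 of the 9 tested were called by edgeR or by DESeq2 and 0 had an unadjusted p under 0.05 in edgeR (median 0.32). Among 23 inflammasome sensors, regulators and executioners, edgeR called 1 of the 19 tested, lower: Txnip, a thioredoxin-binding protein that can activate NLRP3, went from 539 ± 49.6 to 412 ± 38.4 CPM (-0.38, SE 0.09, adjusted p = 0.0123), with all ARG1+ libraries below all ARG1- libraries. The median of this list was -0.04. DESeq2 also called 2 genes of it higher, both encoding sensors of the NAIP family, which are near-identical copies whose reads may be split between them: Naip5 (30.3 ± 4.22 to 41.9 ± 9.44 CPM, all ARG1+ libraries above all ARG1- libraries; DESeq2 adjusted p = 0.0150, edgeR 0.0755) and Naip6 (10.1 ± 5.61 to 21.0 ± 9.92 CPM; 0.0349 and 0.0984). Of the genes not called by edgeR in this list, Aim2, a sensor of DNA (58.5 ± 9.77 and 45.8 ± 6.21 CPM; edgeR adjusted p = 0.0882), and Casp4, an inflammatory caspase (13.7 ± 6.0 and 6.36 ± 4.17 CPM; 0.0979), had an unadjusted p under 0.05 with lower values, and DESeq2 called neither.

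Among 17 receptors and transducers of TNF, IL-6 and IL-10, all of which were tested, edgeR called 1 higher: Adam17, the protease that releases TNF from the membrane, from 412 ± 40.5 to 536 ± 86.8 CPM (0.38, SE 0.12, edgeR adjusted p = 0.0430). DESeq2 also called Tyk2, a Janus kinase of these receptors, higher (69.4 ± 20.8 to 95.6 ± 15.3 CPM, adjusted p = 0.0426, edgeR 0.111). The median of this list was 0.05, and 3 genes had an unadjusted p under 0.05 in edgeR, all with higher values. Besides Adam17 and Tyk2 this was Stat3 (202 ± 37.9 to 256 ± 41.2 CPM, edgeR adjusted p = 0.146, DESeq2 0.0533). Of 18 NF-kB subunits, kinases and inhibitors, 3 rose and 1 fell (median 0.20), against 6.44% of all genes higher and 9.42% lower; whether the list differs from genes at large was not tested. The rises were in both catalytic subunits of the IκB kinase, Ikbkb (84.8 ± 14.6 to 140 ± 22.0 CPM; 0.73, adjusted p = 0.00396) and Chuk (65.9 ± 16.7 to 101 ± 18.5 CPM; 0.60, adjusted p = 0.0338), and in Nfkbid, a nuclear IκB protein (5.76 ± 1.74 to 13 ± 2.70 CPM; 1.17, adjusted p = 0.0106). Nfkbia, which encodes the inhibitor IκBα and is itself a target of NF-kB, fell from 95.8 ± 6.85 to 71.2 ± 14.8 CPM (-0.44, SE 0.13, adjusted p = 0.0329). None of the 5 NF-kB subunit genes in the list was called by edgeR or DESeq2, and 1 of them, Nfkb1, had an unadjusted p under 0.05 in edgeR (0.0107).

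Of 9 regulators of cytokine mRNA stability, 0 were called by edgeR and 1 had an unadjusted p under 0.05, Rc3h2, which DESeq2 called higher (median 0.30). Of 21 other cytokines, 12 were tested and 1 fell: Il16, a chemoattractant of CD4+ cells, from 411 ± 41.6 to 304 ± 37.2 CPM (-0.43, SE 0.10, adjusted p = 0.0133). In that list 7 genes had no counts in any library. Of 9 further markers of classical activation, 7 were tested and 1 was called, in edgeR only: Ptgs2, which encodes cyclooxygenase-2. It had 0 counts in all ARG1- libraries and 75 counts in 3 of the 6 ARG1+ libraries, a mean of 0.318 ± 0.426 CPM. Ptgs2 passed the filter on low counts only through the ARG1+ libraries, and its call (edgeR adjusted p = 0.0403) was not shared by DESeq2 (0.281), so that no change of Ptgs2 is read from it. With lower values in ARG1+ microglia, 3 genes of this list had an unadjusted p under 0.05 in edgeR and were not called by either tool: Cd86, which encodes a costimulatory ligand (714 ± 122 and 568 ± 43.8 CPM, all ARG1+ libraries below all ARG1- libraries; edgeR adjusted p = 0.0550), Sod2 (0.0901) and Cd68 (0.142). These list counts moved with single libraries: leaving out 1 gave between 4 and 9 genes called over all lists, with 4 without ARG1+ female 8 or ARG1+ male 16 and 5 without ARG1- female 2, ARG1- female 13, ARG1+ female 7, ARG1+ female 15 or ARG1+ male 12.

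**Figure D5:**
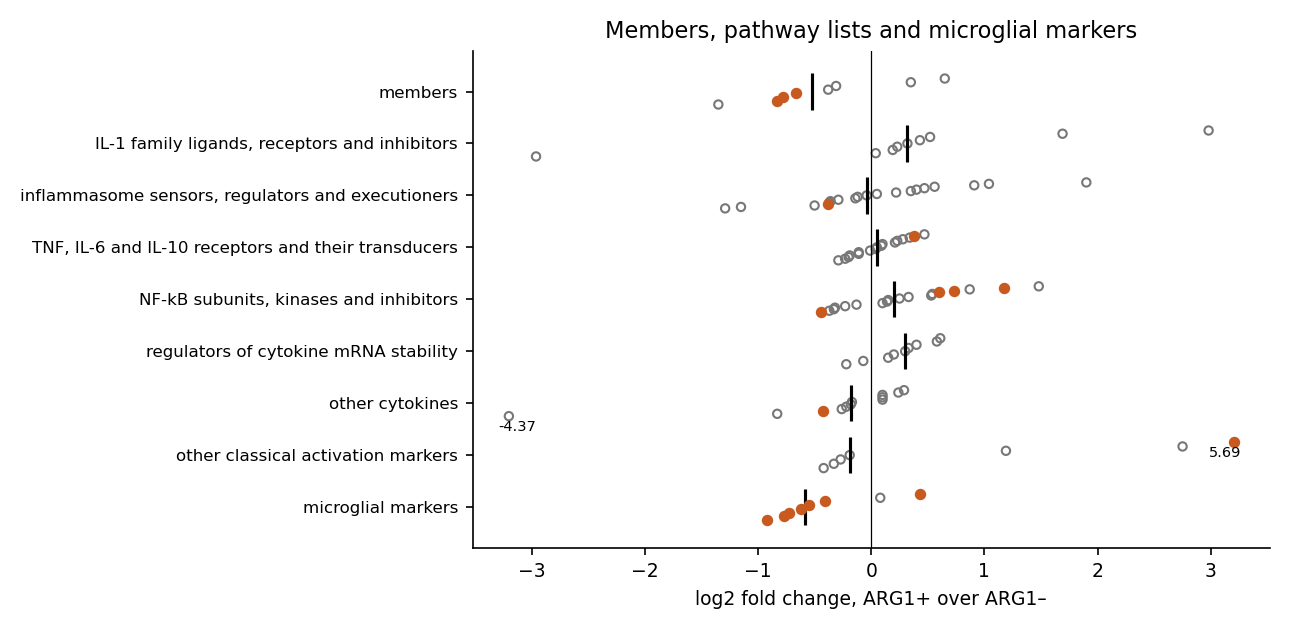
Log2 fold change, ARG1+ over ARG1- microglia (x axis), of each tested gene among the members, the 7 pathway lists and the microglial markers (points; orange, adjusted p under 0.05; bars, list medians). Points beyond the axis are drawn at its edge with their fitted value, that of Ptgs2 (0 counts in ARG1- microglia) being no measure of fold; the members have a median of -0.52 and the microglial markers of -0.59.

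Markers of microglia moved in the same direction as the members that fell. Of 8 such genes 6 fell, among them Tmem119 (5223 ± 843 CPM in ARG1- and 3052 ± 329 CPM in ARG1+ microglia) and P2ry12, 1 rose (Sall1, log2 fold change 0.43) and Cx3cr1, the gene of the sorting marker, did not pass (0.08). Their summed level was 33339 to 40436 CPM in ARG1- and 24454 to 28526 CPM in ARG1+ libraries. Of 16 immediate early genes, which respond to the handling of cells, 14 were tested and 2 rose, Egr1 (7.87 ± 3.45 to 19.4 ± 2.97 CPM) and Atf3 (17.6 ± 9.21 to 32.8 ± 9.37 CPM); 3 had an unadjusted p under 0.05, the other being Nr4a1 (0.343 and 3.39 CPM), and DESeq2 also called Fos higher (0.525 and 1.62 CPM; adjusted p = 0.0417, edgeR 0.261). Their sums were 479 to 766 and 633 to 701 CPM. The part of these genes in the results for the members was not tested.

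Other cells that make these cytokines were looked for by their markers. The neutrophil genes Ly6g and Retnlg were at 0 in all libraries, none of 9 neutrophil markers was called by edgeR although Csf3r and Cxcr2 had an unadjusted p under 0.05 and were called higher by DESeq2, and their sum of 298 to 366 and 342 to 512 CPM came mostly from Csf3r, which microglia also express. S100a8 had 37 counts in 2 ARG1- libraries, and S100a9 and Ngp had 44 and 38 counts in 1 ARG1- library each. All 3 had 0 counts in ARG1+ libraries. Mmp8 and Camp had 45 and 2 counts in 1 ARG1+ library each and 0 in ARG1- libraries. None of these sparse genes passed the filter. Of 8 monocyte markers 1 fell (Plac8, 6.75 ± 1.80 to 1.32 ± 0.777 CPM), Chil3 was at 0, and the sums were 7.46 to 14.1 and 2.29 to 7.20 CPM. Of 8 markers of border macrophages 1 rose (Stab1, log2 fold change 0.82), and the sums were 293 to 511 and 397 to 836 CPM. Most of them came from Stab1 and Mrc1, the gene of CD206, against which the cells were gated; Mrc1 was at 121 ± 16.1 and 147 ± 46.4 CPM (edgeR adjusted p = 0.371). Of 8 markers of T and NK cells 4 were at 0, among them all 3 CD3 genes, and the sums stayed at or below 1.40 CPM. The 1 tested gene of that list, Klrb1c, which encodes an NK cell receptor, had 0 counts in ARG1- microglia and 102 counts in 5 of the 6 ARG1+ libraries, through which alone it passed the filter, so that no change is read from its calls (edgeR adjusted p = 0.0162, DESeq2 8.4e-04). The part of the Csf3r, Cxcr2, Plac8 and Stab1 differences and of the Klrb1c and sparse neutrophil marker counts in the results for the members was not tested.

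The genes whose levels followed a member most closely over the 12 libraries are given as a description, by Pearson's r of log2 CPM among 11632 genes that reached 10 counts in all of them. Libraries of both populations enter, so that a shared difference between populations raises r. For Il1a they were BC028528 (r = 0.96), 1810009A15Rik (0.95) and Fam217b (0.95), and for Il18 Tmem141 (0.95), Vamp8 (0.93) and Ssr4 (0.93). For Casp1 they were Tomm20l (0.96), Brcc3 (0.94) and Gm17259 (0.94), and for Nlrp3 Scrib (0.91), Tubgcp6 (0.87) and Hira (0.86). For Pycard they were its overlapping neighbour Gm45205 (0.99), Psme1 (0.98) and Ubb (0.98). Within ARG1- microglia r with Il1a was 0.92, 0.90 and 0.89 for BC028528, 1810009A15Rik and Fam217b, and within ARG1+ microglia 0.75, 0.61 and 0.45. For the genes named with the other members, r within a population was 0.69 to 0.99. Il1b, Il6, Tnf and Il10 had fewer than 10 counts in at least 1 library and were left out.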

How the data were processed

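Bulk RNA-seq was available for 12 libraries. RNA was amplified with SMART-Seq v4 and libraries were made with Nextera XT. Per the study's methods and the submitters' processing notes, the authors used bcl2fastq 2.20.0, aligned reads to Ensembl GRCm38/mm10 with STAR 2.6.1d, counted them on genes with featureCounts 1.5.1 and compared groups with DESeq2 1.28.1; the strand setting and annotation release were not given in the sources used here. The values the authors deposited are raw counts per gene, without normalization; 0 sample columns were left unused. Reads carry no molecular identifiers, so limits set by 3 counts cover counting error only. SMART-Seq amplifies cDNA, which adds noise for rare transcripts.

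Symbols, positions and exon lengths were taken from GENCODE M21 (GRCm38), which matched 55227 of 55487 identifiers. Counts were analysed in R 4.3.3 with edgeR 4.0.16: filterByExpr on the 4 groups, TMM, glmQLFit and glmQLFTest on ARG1 status and sex, Benjamini–Hochberg adjustment over all 16908 genes, limit 0.05; sex contrasts used 4 group means. The script was tested on simulated data. Replicate pairs of a group differed by 44.4 to 135 times the degrees of freedom of a chi-square test, so each library counted as 1 replicate. Alternatives were DESeq2 1.42.0, other size factors, other filters, no sex term, a term for the libraries numbered 13 to 16, these libraries left out, each sex alone, thinned counts and each library left out. An exact permutation test was planned for members under the filter; Il10, with 0 counts throughout, gave nothing to test.

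The members and all lists were chosen with earlier results of these data known. All members were named, and of the pathway lists the called genes, up to 3 per list and direction; for members with at least 10 counts in every library, the 3 genes of highest r. Other genes were named only beside a result they touch, after their values were seen. Marker lists for B cells, mast cells, neurons, astrocytes, oligodendrocytes and endothelial cells were also computed.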

Additional observations from a re-analysis of the deposited data

Results flagged for a closer look

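Among the 16 sets of 6 libraries examined (8 members in 2 populations), 3 held a library far from the other 5 by Dixon's rule, the gap divided by the range. For normally distributed values chance gives about 1 in 20 sets, or 0.80 here. Whether the CPM values are normally distributed was not tested, so 0.80 is a rough guide only. Nlrp3 in ARG1- male 14 was 24.8 CPM, against 10.1 to 14.7 CPM in the other ARG1- libraries. Nlrp3 in ARG1+ female 8 was 9.05 CPM, against 22.9 to 29.7 CPM in the other ARG1+ libraries. Il6 in ARG1+ female 7 was 0.0634 CPM, from 2 counts, against 0.987 to 1.53 CPM in the other ARG1+ libraries; its gap of 0.628 of the range barely exceeds the critical value of 0.625, and a value under the limit of 3 counts does not carry that precision. The direction for Nlrp3 was the same without either library.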

How the results depend on the processing

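The number of members called, 3 with all libraries, was 1 (Pycard) with the libraries numbered 1 to 12 only, 1 (Pycard) in females alone, 0 in males alone by edgeR (adjusted p = 0.0719 for Il1a and Pycard, with unadjusted p of 0.00141 and 0.00116), 3 under each of the other 8 alternatives and 2 to 4 with 1 library left out. The settings with fewer calls also had fewer libraries. The direction of Il1a (-1.13 to -0.50), Il18 (-0.92 to -0.63) and Pycard (-0.69 to -0.62) was the same under all 11 alternatives. Il1b changed sign with libraries 1 to 12 only (-0.34) and in females alone (-0.16), and ranged from 0.03 to 1.79 with 1 library left out; Tnf changed sign without ARG1- female 1 (0.26; range -0.58 to 0.26). The cause was not tested. Of the pathway genes, 8, with Ptgs2 among them, were called with all libraries. The count was 5 without a filter, 2 with libraries 1 to 12 only, 11 by DESeq2, and 4 to 9 with 1 library left out. Between the sexes 0 members were called by edgeR with DESeq2 size factors or the filter of 10 counts, by DESeq2, or with 1 library left out; other alternatives were not run there. The median of all genes moved by 0.04 with DESeq2 size factors and by 0.01 with upper-quartile factors. No paired analysis was run, because the groups share no replicate number in the labels and the labels do not say which libraries shared tissue. No other test of Il10 could be made because all its counts are 0. At the levels of Il1b, Il6 and Tnf the spread between libraries exceeds counting error and limits what 6 libraries can show.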

Other observations

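The remaining marker lists gave these values. Of 4 B cell markers 1 was tested and fell, Cd79b (158 ± 14 CPM in ARG1- and 74.0 ± 12.9 CPM in ARG1+ microglia). Of 5 astrocyte markers 1 fell, Slc1a3 (176 ± 20.1 and 131 ± 4.95 CPM). The others were far lower in level and were not called by either tool. Gfap (1.17 and 3.22 CPM) and Aldh1l1 (0.399 and 0.983 CPM) had higher means in ARG1+ microglia. Aqp4 (1.13 and 0.777 CPM) and Slc1a2 (1.09 and 0.691 CPM) had lower means. Whether the Slc1a3 difference comes from astrocytes was not tested. Of 5 oligodendrocyte markers 1 fell, Cnp (194 ± 26.1 and 133 ± 10.9 CPM), and 3 had an unadjusted p under 0.05 with lower values. DESeq2 also called Mag lower (35.1 and 22.8 CPM, adjusted p = 0.0272, edgeR 0.0568). Of 4 mast cell markers 0 passed the filter on low counts, with sums of at most 3.14 CPM. Of the 5 neuronal and the 5 endothelial markers edgeR called 0, with 0 and 1 (Pecam1) at an unadjusted p under 0.05, and DESeq2 called Pecam1 higher; Cldn5, which marks brain endothelium, was at 0 in all libraries.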
